A study of Mus musculus with 2 samples.

Results

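The 9 genes described here carry glutamine and other amino acids across membranes, turn glutamine into glutamate and back, or spend its nitrogen. They are the transporter genes Slc1a5, Slc38a2, Slc7a5, Slc7a11 and Slc3a2 and the enzyme genes Gls2, Glud1, Glul and Asns. They were chosen by symbol, through the RefSeq transcript that each array probe was designed on, out of 20618 genes with a probe. All 9 had a probe, 12 probes in all. By 10 of these probes 7 of the 9 genes were measured, meaning well above background on each array, as were 51% of all genes with a probe. Array signals of leukaemia cells with a high and a low cytosolic NADH/NAD+ ratio were compared. SoNar is a genetically encoded fluorescent sensor of that ratio, read as its emission under violet over that under blue excitation. Leukaemic B-lineage blasts (B-ALL) were taken from mouse marrow at 8 weeks, per the labels, and sorted on that reading. The SoNar-high fraction and the SoNar-low fraction each went to 1 one-colour Agilent array. In the titles of the samples the 2 fractions are called N-myc-high and N-myc-low. Whether N-myc names the leukaemia model, shared by both groups, or a second property of the sort is not said in the labels, which also give no number of mice behind an array.

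Glutamine enters cells through sodium-coupled carriers, of which SLC1A5 (ASCT2) and SLC38A2 (SNAT2) are widely expressed in dividing cells. The SLC7A5 (LAT1) carrier pairs with the heavy chain SLC3A2 (4F2hc) and exchanges intracellular glutamine for leucine and other large neutral amino acids, while SLC7A11 (xCT) pairs with the same heavy chain and exports glutamate for cystine. The glutaminase GLS2 releases ammonia from glutamine to give glutamate in mitochondria, and glutamate dehydrogenase (GLUD1) oxidises glutamate to 2-oxoglutarate while reducing NAD+ or NADP+. Glutamine synthetase (GLUL) runs the opposite way to glutaminase, and asparagine synthetase (ASNS) moves the amide nitrogen of glutamine onto aspartate. Human lymphoblasts low in asparagine synthetase are known for their sensitivity to asparaginase. When amino acids run short, the kinase GCN2 raises translation of the factor ATF4, which binds response elements in genes of this kind, Asns and Slc7a11 among them.

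The proximal promoters of those last genes are shown because they hold the letters of that element. The 250 bases upstream of the RefSeq start (build GRCm38.p6) were searched on both strands for TGATGNAA, which reads TTNCATCA on the other strand. Matches are in capitals, and each window ends at the base before the start. Of the 9 genes 6 were in the promoter table, and 2 of these held a match, against 3.45% of 32851 promoters. A match is a description of letters, not a bound site.
Asns, minus strand, chr6:7693210-7693278: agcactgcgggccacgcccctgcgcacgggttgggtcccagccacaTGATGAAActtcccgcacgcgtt
Slc7a11, minus strand, chr3:50443614-50443725: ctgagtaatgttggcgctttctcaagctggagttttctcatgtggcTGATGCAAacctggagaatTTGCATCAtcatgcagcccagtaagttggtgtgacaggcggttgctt
The Asns match starts 23 bases upstream of the start. The Slc7a11 window holds 2 matches, starting 66 and 47 bases upstream, on opposite strands. No match was found in these windows of Glul, Glud1, Slc38a2 and Slc3a2.

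Values below are the scanner's processed signal, a background-subtracted intensity in arbitrary units, with the scanner software's own error estimate after the ± sign. That error covers 1 spot on 1 slide, not cells, mice or sorts. For differences, each array was scaled to its 75th percentile over all probes (409 units for SoNar-high, 470.2 units for SoNar-low), so a difference is the log2 value of SoNar-high minus that of SoNar-low and includes a shift of 0.20. A gene's difference is the mean over its measured probes. The median of the 10521 measured genes was 0.22, so a gene at that value moved with the arrays as a whole. With 1 array per population no difference has a replicate check, no test was possible, and a gene was called by size alone, at 2-fold or more. The number of arrays limits the precision.

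Well above background were 44.8% of the 43020 spots for genes on the SoNar-high array, against 72.9% on the SoNar-low array, and the dimmest probe so classed had 40.8 and 17.7 units in the same order. The arrays were scanned in separate sessions, and an effect of the scan cannot be told apart from one of the population. Of 9 genes listed for the B lineage, 8 were measured on both arrays, 4 above and 4 below the median gene. They ran from Ptprc at -0.22, a gene not specific to that lineage, to Ebf1 at 0.98. Pax5 was at -0.079, Cd79a at 0.42 and Blnk at 0.77, while Igll1 did not clear background on either array. Markers of other marrow cells were present as well, with list medians below 0 (neutrophil -0.53, monocyte and macrophage -0.70, erythroid -1.02, T and NK cell -1.07). In bulk RNA such as this, fewer cells of a type and less RNA per cell cannot be told apart.

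None of the 7 measured members differed by 2-fold, against 6.8% of all measured genes (2.4% higher and 4.39% lower). With 7 genes, a count of 0 is near that background. Their differences ran over 0.66 on the log2 scale, from -0.0076 for Slc1a5 to 0.65 for Glul, and their median was 0.21, beside 0.22 for all measured genes. That nearness depended on the processing. The members' median minus the median gene was -0.26 with quantile normalization, -0.20 with loess and -0.23 in the series matrix. It was -0.22 with the filter that kept brighter probes alone and 0.16 with no filter on dim probes. At 1.5-fold 1 of the 7, Glul, was called, against 30.6% of all measured genes. Before scaling, 5 of the 10 probes were brighter for SoNar-high and 5 for SoNar-low.

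**Figure D1:**
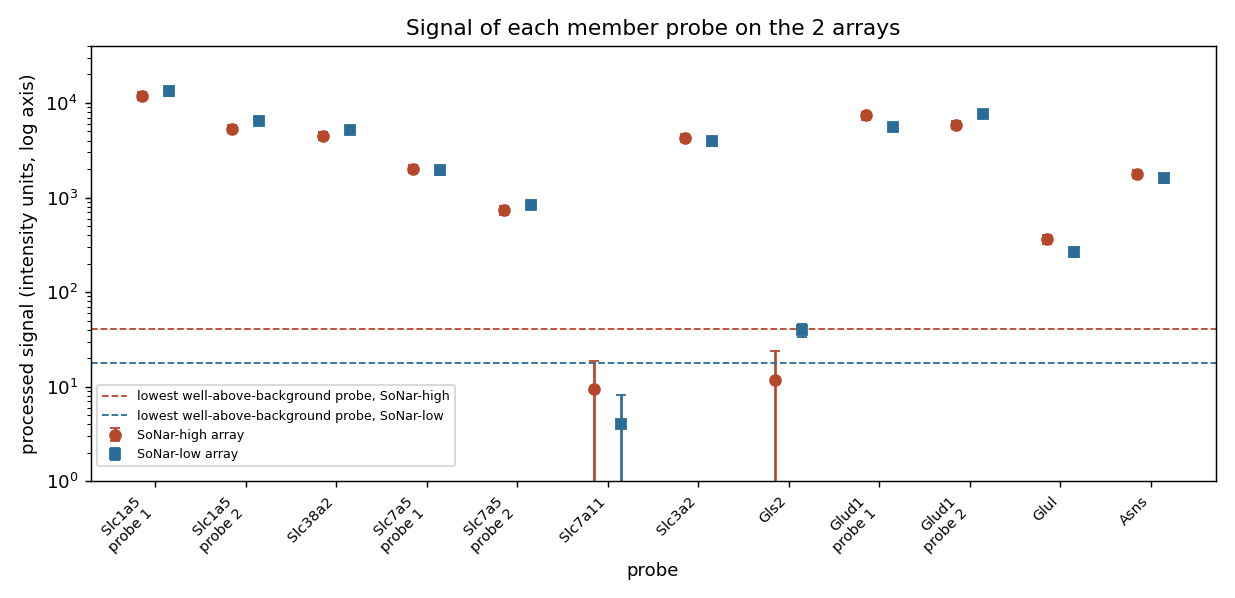
Processed signal in intensity units (log axis) of the 12 probes of the 9 genes, circles for the SoNar-high and squares for the SoNar-low array, with the scanner software's error as bars and each array's dimmest well-above-background probe as a dashed line. The 10 pairs of measured probes lie close together far above both lines, while Slc7a11 lies under both and Gls2 at 11.9 units for SoNar-high and 39.6 units for SoNar-low. Heights can be compared within a probe, not between probes.

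The glutamine importers were nearly level between the arrays and stood below the median gene. The first Slc1a5 probe had 11957 ± 1196 units on the SoNar-high array and 13205 ± 1321 units on the SoNar-low array, a difference of 0.058. The second had 5355 ± 536 and 6480 ± 648 units in the same order, a difference of -0.074. In units both probes were dimmer on the SoNar-high array, and after scaling both differences were under the combined scanner error of 0.20.

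Slc38a2, the importer that cells raise when amino acids run short, had 4523 ± 452 units on the SoNar-high array, against 5151 ± 515 units on the SoNar-low array. Its difference was 0.014, under the scanner error of 0.20. Slc1a5 and Slc38a2 stood 0.23 and 0.21 below the median gene, where 32.5% and 33.9% of measured genes were lower still. They were below the median gene in all 14 processing settings, over ranges of -0.44 to -0.055 for Slc1a5 and -0.46 to -0.033 for Slc38a2. Scaling by a constant cannot move that place, so the range comes from the other settings. Against 0 the sign was not fixed, with Slc1a5 above 0 in 2 settings (scaling to the median of all probes and the brightest probe of each gene) and Slc38a2 in 7 of the 14. The importers differed from each other by 0.022.

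Of the exchanger subunits, the LAT1 light chain and the shared heavy chain were measured and the xCT light chain was not. Slc7a5, the LAT1 light chain, had 2007 ± 201 units on the SoNar-high array, against 1943 ± 194 units on the SoNar-low array by its first probe, a difference of 0.25. By its second probe it had 732 ± 74.2 and 833 ± 83.4 units in the same order, a difference of 0.016. The gene's mean was 0.13, with an SD between the 2 probes of 0.16, so it stood 0.092 below the median gene. That place held in 13 of 14 settings, the exception being no filter on dim probes (0.085 above).

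Slc3a2, the heavy chain of both exchangers, had 4269 ± 427 units on the SoNar-high array, against 3923 ± 392 units on the SoNar-low array. Its difference of 0.32 lay 0.10 above the median gene and 0.19 above that of Slc7a5, both within the scanner error. It was above 0 in all 14 settings but below the median gene in 5 of them (quantile normalization, loess, normexp, the series matrix and the filter that kept brighter probes alone).

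Slc7a11, the cystine and glutamate exchanger gene whose promoter is printed above with 2 motif matches, gave no measured level. Its 1 probe had 9.47 ± 9.44 units on the SoNar-high array, against 4.05 ± 4.04 units on the SoNar-low array, not well above background on either, so no fold is given. Of all genes with a probe 22.5% had no probe well above background on either array. Asns, the other gene with a printed match, was bright enough on both.

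Among the enzymes, the glutaminase member was seen on 1 array only. Gls2, the p53-responsive glutaminase best known from liver, had 11.9 ± 11.8 units on the SoNar-high array, not well above background, against 39.6 ± 6.23 units on the SoNar-low array. The SoNar-low signal, after scaling, did not exceed the SoNar-high array's detection floor, so no bound on the fold can be given. Being seen on the SoNar-low array only was shared by 26.4% of genes with a probe.

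Glud1 was the member whose probes disagreed. Its first probe had 7369 ± 737 units on the SoNar-high array, against 5605 ± 560.5 units on the SoNar-low array, a difference of 0.60. Its second had 5884 ± 589 units on the SoNar-high array, against 7670 ± 767 units on the SoNar-low array, a difference of -0.18. The probes thus order the populations in opposite ways, although both were designed on the same transcript. The SD between them was 0.55, reached or passed by 24.8% of 2394 genes with several measured probes, and the mean of 0.21 describes neither probe.

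Glul, glutamine synthetase, was the highest member. Its 1 probe had 360.5 ± 37.9 units on the SoNar-high array and 264 ± 26.8 units on the SoNar-low array, a difference of 0.65, or 1.57-fold. It was higher than 84.1% of measured genes and lay 0.43 above the median gene, beside a scanner error of 0.21. Glul stood above the median gene in all 13 settings that measured it, by 0.37 to 0.61. It passed 2-fold in 1 of them, scaling to the median of all probes (1.22), which put the median gene itself at 0.79. The gap between Glul and Slc1a5 was 0.66 and that between Glul and Slc38a2 was 0.64, and scaling by a constant leaves both gaps as they are.

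Glul is also abundant in astrocytes and in macrophages, so markers of both were read beside it. Of 12 brain genes, of astrocytes and of neurons, 7 were measured on both arrays, with 5 at least 2-fold higher and 1 lower on the SoNar-high array. Of the 5 higher, only Aldoc is among the astrocyte genes given below, so counts and sums of the list are not those of astrocytes alone. The summed scaled signal of the 12 was 8.42 for SoNar-high and 6.17 for SoNar-low. Without the brightest gene of the list it was 5.20 and 4.74 in the same order. Of the astrocyte genes in that list, Slc1a2, Slc1a3 and S100b were not well above background on either array and Gfap was on the SoNar-low array only, Aqp4 was at -0.23 and Aldoc at 1.78. Of 9 monocyte and macrophage genes with a probe 4 were measured, 2 of them at least 2-fold lower and none 2-fold higher. Of the 4, 1 stood above the median gene, at 0.62. Another 4 of the 9 cleared background on the SoNar-low array only, as did 26.4% of all genes with a probe. The summed scaled signals of that list were 1.71 for SoNar-high and 2.65 for SoNar-low. Beside both lists, 4.39% of all measured genes were lower and 2.4% higher by at least 2-fold. The part of either cell type in the Glul value was not tested.

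Asns, the amidotransferase that makes asparagine, had 1774 ± 178 units on the SoNar-high array, against 1591 ± 159 units on the SoNar-low array. Its difference of 0.36, or 1.28-fold, was 1 to 2 times its scanner error of 0.20 and lay 0.13 above the median gene. It was above 0 in all 14 settings and below the median gene in 4 of them (quantile normalization, loess, the series matrix and the filter that kept brighter probes alone).

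**Figure D2:**
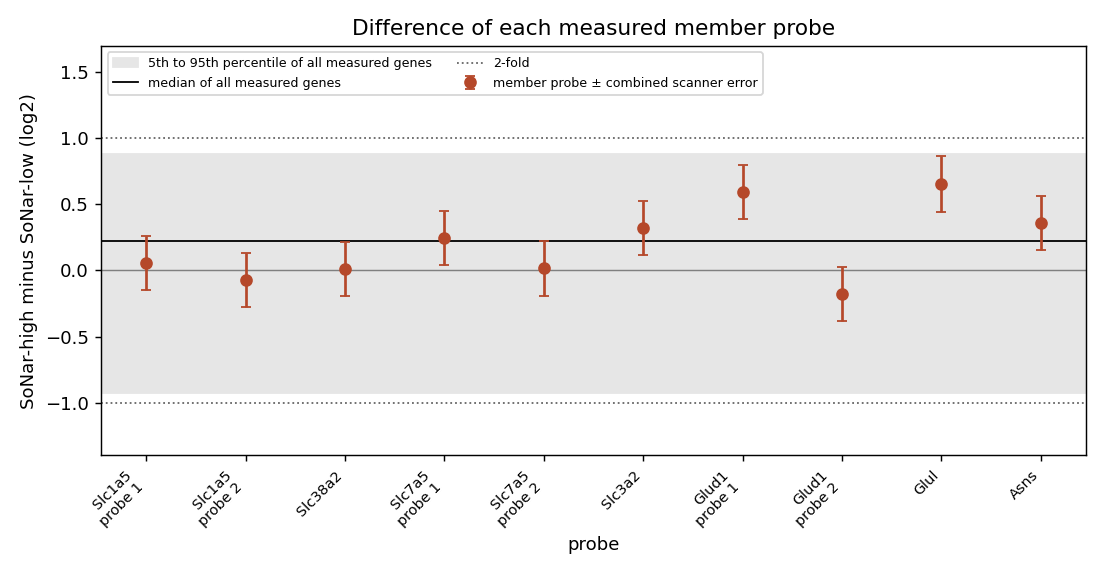
SoNar-high minus SoNar-low difference (log2) of the 10 measured member probes, with the combined scanner error as bars. The line at 0.22 is the median of all measured genes, the band runs from their 5th to their 95th percentile and dotted lines mark 2-fold. All 10 probes lie inside the band, the 2 Glud1 probes apart from each other and Glul highest.

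Set in order, the differences ran from Slc1a5 through Slc38a2, Slc7a5, Glud1, Slc3a2 and Asns to Glul. Neighbours up to Asns were at most 0.12 apart, under the scanner error of a single difference, so that part of the order is not resolved. Glul stood 0.29 above Asns, as far as the errors of both combined (0.29). Of the 10 probes 5 lay within 1 scanner error of 0 and 2 lay beyond 2 errors of 0, the Glul probe and the first Glud1 probe. Over all 13355 named probes measured on both arrays, 47.5% lay beyond 2 errors of 0. Distances from 0 include the scaling shift of 0.20. From the median gene the first Glud1 probe lay 0.37 away, under 2 of its errors of 0.20.

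**Figure D3:**
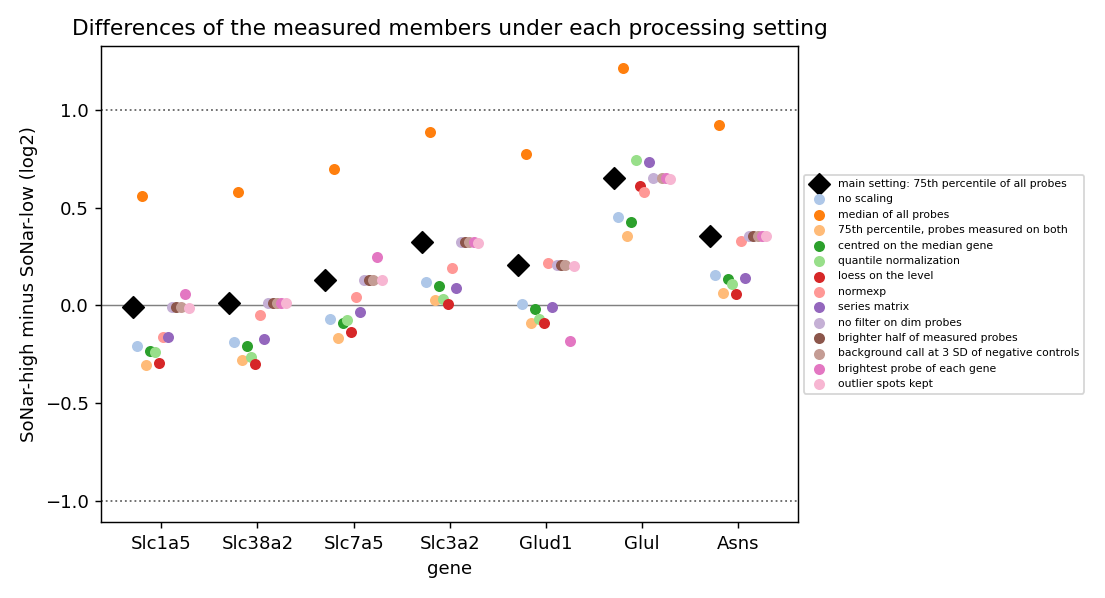
SoNar-high minus SoNar-low difference (log2) of the 7 measured genes under 14 processing settings, with the setting used in the text as black diamonds. Scaling to the median of all probes lifts every gene, Glul to 1.22, and Glul is the highest gene in each of the 13 settings that measured it.

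The other genes of the pathway were read from 6 lists of 83 genes in all. The median of those measured, minus the median gene, was -0.038, which scaling by a constant cannot change. It was -0.17 with the filter that kept brighter probes alone and 0.12 with no filter on dim probes. Of the 83 genes, 82 had a probe, 58 were measured on both arrays, 8 cleared background on the SoNar-low array only, none on the SoNar-high array only and 16 on neither. Of the 58, 2 were at least 2-fold higher, against 2.4% of all measured genes, and 1 at least 2-fold lower, against 4.39%. That split moved with the scaling, to 0 higher and 2 lower with no scaling, with scaling to probes measured on both arrays and with centring on the median gene, and to 14 higher and 1 lower with scaling to the median of all probes. Their median was 0.18, beside 0.22 for all measured genes.

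Among 26 other amino acid transporters of the cell membrane 10 were measured, with a median of 0.14 and none past 2-fold, against 6.8% of all measured genes. The highest was Slc43a2, a leucine facilitator gene, at 163 ± 19.5 units on the SoNar-high array, against 118 ± 12.5 units on the SoNar-low array (0.67). The lowest was Slc36a1, a proton-coupled carrier of lysosomal and plasma membranes, at -0.57, but its probes lay at -1.47 and 0.32. Of the 26, 5 cleared background for SoNar-low only, against 26.4% of all genes with a probe, and 11 for neither, against 22.5%.

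Among 18 glutamate and proline enzymes with a probe 16 were measured, with a median of 0.15. Got1, the cytosolic aspartate aminotransferase, had 6468 ± 647 units on the SoNar-high array, against 3629 ± 363 units on the SoNar-low array, and at 1.04 it was just past 2-fold. Its mitochondrial counterpart Got2 had 10174 ± 1017 units on the SoNar-high array, against 13343 ± 1334 units on the SoNar-low array (-0.19). Got1 passed 2-fold in 7 of 14 settings, over a range of 0.71 to 1.60. Settings that change only the choice of probes or spots left this gene, with 1 probe, at 1.03 to 1.04. Of the alternatives that change the values themselves, only scaling to the median of all probes put it past 2-fold. Lowest was Aldh18a1, which starts proline synthesis from glutamate, at -0.59.

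Among 9 glutamine amidotransferases 8 were measured, with a median of 0.18. Gfpt1, which feeds glutamine nitrogen into hexosamines, had 200 ± 23.6 units on the SoNar-high array, against 103 ± 11.3 units on the SoNar-low array (1.15), by 1 of its 2 probes. The other probe did not clear background on either array. Gfpt1 passed 2-fold in 8 of 13 settings, some of which change only the choice of probes or spots. Ppat, which opens purine synthesis, was lowest, with probes at -0.31 and -0.17.

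Of 6 glutathione genes 3 were measured. The subunits of glutamate-cysteine ligase stood apart, with the catalytic Gclc at 0.22 and the modifier Gclm at -0.92. Gclm had 293 ± 31.0 units on the SoNar-high array, against 637 ± 63.8 units on the SoNar-low array, and it passed 2-fold in 4 of 13 settings. Gss, glutathione synthetase, was highest at 0.32. All 5 mitochondrial carriers were measured, from Slc25a18 (-0.26) to Slc25a22 (0.97), both carriers of glutamate. Slc25a22 had 1211 ± 122 units on the SoNar-high array, against 713 ± 71.4 units on the SoNar-low array.

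The amino acid response list, which holds neither Asns nor Slc7a11, was split around the median gene. Of its 18 genes 16 were measured, 8 above and 8 below the median gene, with a median of 0.21. Eif2ak4, which encodes GCN2, was highest, at 4343 ± 434 units on the SoNar-high array, against 3019 ± 302 units on the SoNar-low array (0.73).

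Atf4 had a mean of 0.35 over probes that disagreed. One had 21530 ± 2153 units on the SoNar-high array, against 12371 ± 1237 units on the SoNar-low array (1.00), and the other had 450.4 ± 46.1 units on the SoNar-high array, against 635 ± 63.6 units on the SoNar-low array (-0.29). Sesn2, a leucine sensor that restrains mTORC1, was lowest, with 336 ± 36.0 units on the SoNar-high array, against 1147 ± 115 units on the SoNar-low array. Its difference of -1.57 rested on 1 probe and was past 2-fold in all 14 settings, over a range of -1.86 to -1.003.

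**Figure D4:**
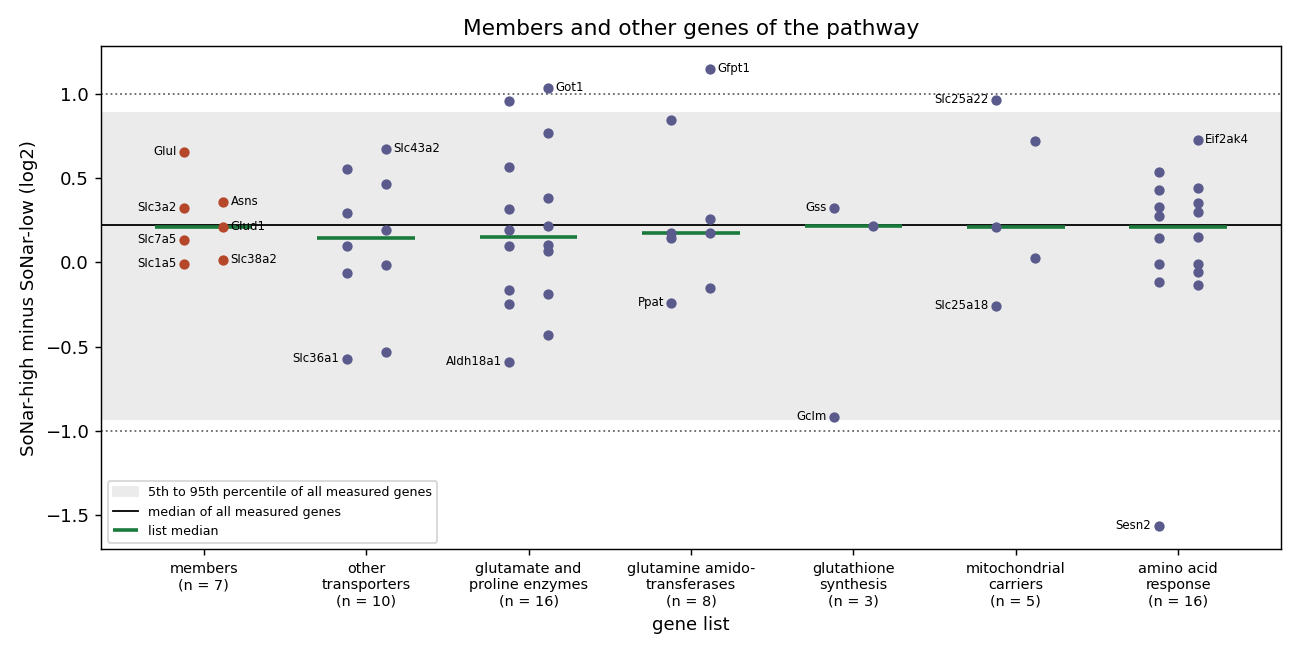
SoNar-high minus SoNar-low difference (log2) of the 7 measured members and of the 58 other measured pathway genes by list, with each list's median as a green bar. The black line at 0.22 is the median of all measured genes, the band their 5th to 95th percentile, and dotted lines mark 2-fold. The 7 list medians lie between 0.14 and 0.22, and Got1, Gfpt1 and Sesn2 lie outside the dotted lines.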

How the data were processed

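Per the labels' protocols, Cy3-labelled RNA of each fraction was put on 1 array. The scanner files deposited by the authors give intensity per spot, with background subtracted by Agilent Feature Extraction. Its version is 11.0.1.1 per the file headers and 9.1 per the submitters' processing notes. Flags of well-above-background, saturated and outlier spots are also deposited. The authors' deposited series matrix holds log2 values with the same median (5.90) in both columns, with the centring not given in the sources used here. The matrix ranked probes as the scanner files did (Spearman's rho 1.000 on both arrays) and served as an alternative.

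Outlier spots were left out (189 population and 1 non-uniform outliers for SoNar-high, 156 and 350 for SoNar-low) and no spot was saturated. Repeat spots were averaged as log2 values, leaving 39085 probes. A probe was well above background where at least 0.5 of its spots were. RefSeq accessions were matched to symbols of a GRCm38 gene table, naming 27115 probes, 11970 having no symbol. The array design names build mm9, so no probe coordinates are given, and the promoter coordinates printed above are those of GRCm38.p6. Probe sequences were not used here, and near-identical copies were not tested.

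The 9 genes, the 6 pathway lists and the 7 marker lists were chosen with earlier results of these data known. Named genes were all 9 members, Got1, Got2, Gclc and Atf4, each list's highest and lowest measured gene, and pathway genes past 2-fold or with a bound of at least 2-fold. One other gene under this rule and a cell marker are not reported here. No test design applied with 1 array per group, and 2 arrays give no pattern by which to name like genes. The steps were tested on simulated data over 10521 genes of the SoNar-high against SoNar-low comparison, with 100 of 100 raised and 100 of 100 lowered 3-fold genes called and 0 of 10321 unchanged. The simulated error was that between spots, so it says nothing of error between samples. Changes of 3-fold lie well past the 2-fold line at such an error, so the result says nothing of smaller differences. Software was R 4.3.3 with limma 3.58.1 (normexp, offset 50) and Python 3.11.15 with matplotlib 3.10.9, statsmodels 0.14.6, pandas 2.3.3 and numpy 2.4.6.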

Additional observations from a re-analysis of the deposited data

How the results depend on the processing

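No paired analysis was possible because each population had 1 array. The count of members past 2-fold stayed 0 in 11 of the 14 alternatives. It was 1 with scaling to the median of all probes and 1 at a threshold of 1.5-fold, Glul both times. With no filter on dim probes it was 2, as Gls2 and Slc7a11 entered. The Slc7a11 signals were at background for both populations, the Gls2 signal for SoNar-high alone. The members' median of 0.21 became 0.0061 with no scaling, 0.77 with scaling to the median of all probes, -0.088 with scaling to probes measured on both arrays, -0.016 with centring on the median gene, -0.067 with quantile normalization, -0.092 with loess and -0.0098 in the series matrix. The pathway median of 0.18 became -0.017, 0.75, -0.11 and -0.038 under the first 4 of these. The pathway count of 3 became 2, both lower, with no scaling, with scaling to probes measured on both arrays and with centring. It became 15 (14 higher) with scaling to the median of all probes, 5 with loess, 1 with normexp, 5 in the series matrix, 10 with no filter on dim probes and 12 at 1.5-fold. Scaling by a constant shifts every gene alike, and the median gene then stood between -0.073 and 0.79. The cause of the other changes was not tested.

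Over all measured genes, 715 were past 2-fold, 35.4% of them higher. This became 3520 (96% higher) with scaling to the median, 914 (6.67%) with scaling to probes measured on both arrays, 784 (10.1%) with no scaling, 812 (8.62%) with centring, 740 (47%) with quantile normalization, 313 (23%) with normexp, 789 (54.5%) in the series matrix, 4427 (42.6%) with no filter, 252 (56%) with brighter probes alone, 1107 (23.8%) with a background call at 3 SD of negative controls and 3215 (66.7%) at 1.5-fold. Of 292 values of single genes under alternatives, 147 moved by less than the spread between spots (a median SD of 0.16 for a difference) and 145 by more. Much of this split follows from the settings. A changed scaling constant moves every gene by 0.20 or more, and a changed filter leaves the value of most genes with 1 probe as it was. The split is thus no measure of how stable the genes are.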

Other observations

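Genes of the glutamate branch that makes and breaks down GABA, and of cytidine nucleotide synthesis, are named here after a look at their values. Abat, which breaks GABA down, had 86.3 units on the SoNar-high and 51.1 units on the SoNar-low array, a difference of 0.96. Aldh5a1, which takes the product of that step on to succinate, had 124 and 83.8 units in the same order, a difference of 0.77. For the synthesis side no difference could be computed. Gad1 did not clear background on either array (9.36 and 13.4 units). Gad2 cleared it on the SoNar-low array only (25.9 and 37.4 units). Ctps, which uses glutamine nitrogen to make CTP, had 17978 and 11503 units in the same order, a difference of 0.85, while Ctps2 lay at 0.15 by its 1 measured probe. None of these passed 2-fold at the scaling used in the text.

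Among genes of the aspartate and glutamate shuttle, Slc25a12 had 1889 units on the SoNar-high and 1319 units on the SoNar-low array (0.72), and its close relative Slc25a13 had 894 and 890 units in the same order (0.21). Nupr1, a stress gene of the ATF4 response, had 9.46 units on the SoNar-high array, not well above background, against 63.3 units on the SoNar-low array. Against the SoNar-high floor this gives a bound of at least 1.35-fold lower in SoNar-high cells.

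Marker lists of other cells lay below the median gene, apart from the brain list. The list median minus the median gene was -0.76 for neutrophil, -0.92 for monocyte and macrophage, -1.24 for erythroid, -1.29 for T and NK and -2.81 for lung genes. Scgb1a1, a club cell secretory protein gene of lung, was at -3.31. The summed scaled signals on the SoNar-high and SoNar-low arrays were 45.8 and 53.8 for 10 neutrophil genes, 10.2 on both for 10 T and NK genes, 57.7 and 34.3 for 10 erythroid genes, 0.619 and 5.22 for 9 lung epithelium genes, and 101 and 79.3 for 9 B-lineage genes. Of the measured genes 1 of 8 neutrophil, 3 of 5 T and NK, 2 of 4 erythroid and 2 of 2 lung genes were lower by at least 2-fold, and none was higher by 2-fold. Over all measured genes the shares were 4.39% lower and 2.4% higher. A further 7 lung, 4 erythroid, 2 neutrophil and 2 T and NK genes cleared background on the SoNar-low array only, as did 26.4% of all genes with a probe. The erythroid sum was carried by Hemgn (55.7 and 30.1, a difference of 0.89), without which it was 1.92 and 4.22, and the other measured erythroid genes were lower (Hba-a1 -1.82, Ermap -1.61, Hbb-bt -0.42). The T and NK sum was carried by Cd2 (7.60 and 4.70), without which it was 2.58 and 5.51. The part of these cells in the values of the amino acid genes was not tested.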
